A study of Homo sapiens with 6 samples.

Results

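The nuclear pore and nuclear transport genes are 44 human genes that encode subunits of the nuclear pore complex, the regulators of the small GTPase Ran and the main soluble transport receptors. The cells were PC-3, an established human prostate carcinoma line that grows without androgen. A gene was taken where a probeset of the array is annotated with its symbol alone, and 42 of the 44 genes, the members measured here, met this among 18404 genes in all. NUP62 and RCC1 are covered only by probesets that name several genes, and no value is given for them. The menthol group held 3 arrays of cells given menthol in ethanol, and the vehicle group 3 arrays of cells given ethanol alone. In both, the cells grew in DMEM with 10% fetal bovine serum, ethanol was at 0.1%, and each Affymetrix whole-transcript array received label made from 300 ng of total RNA. The sources used here give neither the menthol dose nor the time of treatment. The line comes from a single tumour. All levels below are log2 of the array intensity, and all differences are menthol minus vehicle on that log2 scale, with the moderated standard error (SE, n = 3 per group).

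The nuclear pore complex is a large ring-shaped channel through the nuclear envelope. Its scaffold of an outer ring (the Y complex) and an inner ring holds a central channel lined by phenylalanine-glycine (FG) repeats, which lets small molecules through and slows large ones. Importins and exportins carry cargo through the FG repeats, and the direction of transport is set by Ran, which is bound to GTP in the nucleus and to GDP in the cytoplasm. In dividing human cells the pore is taken apart at mitosis and rebuilt afterwards, and Ran and several pore proteins also act on the spindle.

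The cells carried epithelial RNA, with 4 of 4 measured epithelial markers (KRT8, KRT18, EPCAM and CDH1) between the 87.6th and 99.0th percentile of genes by mean intensity. KLK3 and KLK2, the 2 measured of 5 listed androgen-driven genes of luminal prostate cells, lay at the 32.2nd and 33.6th percentile. Markers of leukocytes, endothelium and fibroblasts, 10 of 10 measured, lay between the 0.717th and 70.7th percentile, and the log2 of their summed intensity was 8.66 to 8.78 with menthol and 8.65 to 8.78 with vehicle. This sum rests mostly on COL1A1, the brightest of the 10. Of these markers 3 rose and 0 fell: PECAM1 by 0.60 ± 0.07 (adjusted p = 0.000878), DCN by 0.36 ± 0.09 (adjusted p = 0.0245) and COL1A2 by 0.21 ± 0.06 (adjusted p = 0.039). The epithelial markers rose, 4 of 4, with a summed intensity of 13.06 to 13.10 with menthol and 12.35 to 12.42 with vehicle on the same scale. KRT18, EPCAM and PECAM1 each have 2 probesets, and their values are those of the brighter alone. Of 25 genes of G2/M and mitosis 23 fell and 0 rose, with a median difference of -0.49. At the same adjusted p under 0.05, 14.5% of all genes fell and 14.6% rose. The part of the shifts in markers and mitosis genes in the results below was not tested. Medians of the 6 arrays lay between 47.4 and 49.1 intensity units, and the number of arrays limits the precision.

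Genes of the pore and of nuclear transport were lower with menthol: 17 of 42 fell and 1 rose past the threshold of limma's moderated test (adjusted p under 0.05). Over all 18404 genes 29.1% passed, 14.5% as lower and 14.6% as higher. The largest decreases were those of NUP210, a membrane glycoprotein of the pore, TPR, the filament protein of the nuclear basket, and AAAS, a pore protein mutated in triple A syndrome. The single increase was that of NUP42, an FG nucleoporin of the cytoplasmic side. The median difference of the 42 genes was -0.17, against 0.03 over all genes, and 34 of the 42 differences were below 0. In a bulk extract a lower level in every cell and a smaller share of cells in one stage of the cell cycle cannot be told apart. The count of genes that fell was 9 without menthol replicate 2, vehicle replicate 2 or vehicle replicate 3, where 11.2%, 10.7% and 10.1% of all genes fell, and 10 without vehicle replicate 1, where 10.5% fell. Without menthol replicate 1 or 3 it was 13 and 18, with 12.5% and 13.4% of all genes lower. It was 11 after another quantile normalization, where 12.8% of all genes fell, and 10 after cyclic loess normalization, where 13.4% fell. The median difference of the members was -0.09 and -0.10 under these. With the arrays set to equal medians 18 members and 15.4% of all genes fell.

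**Figure D1:**
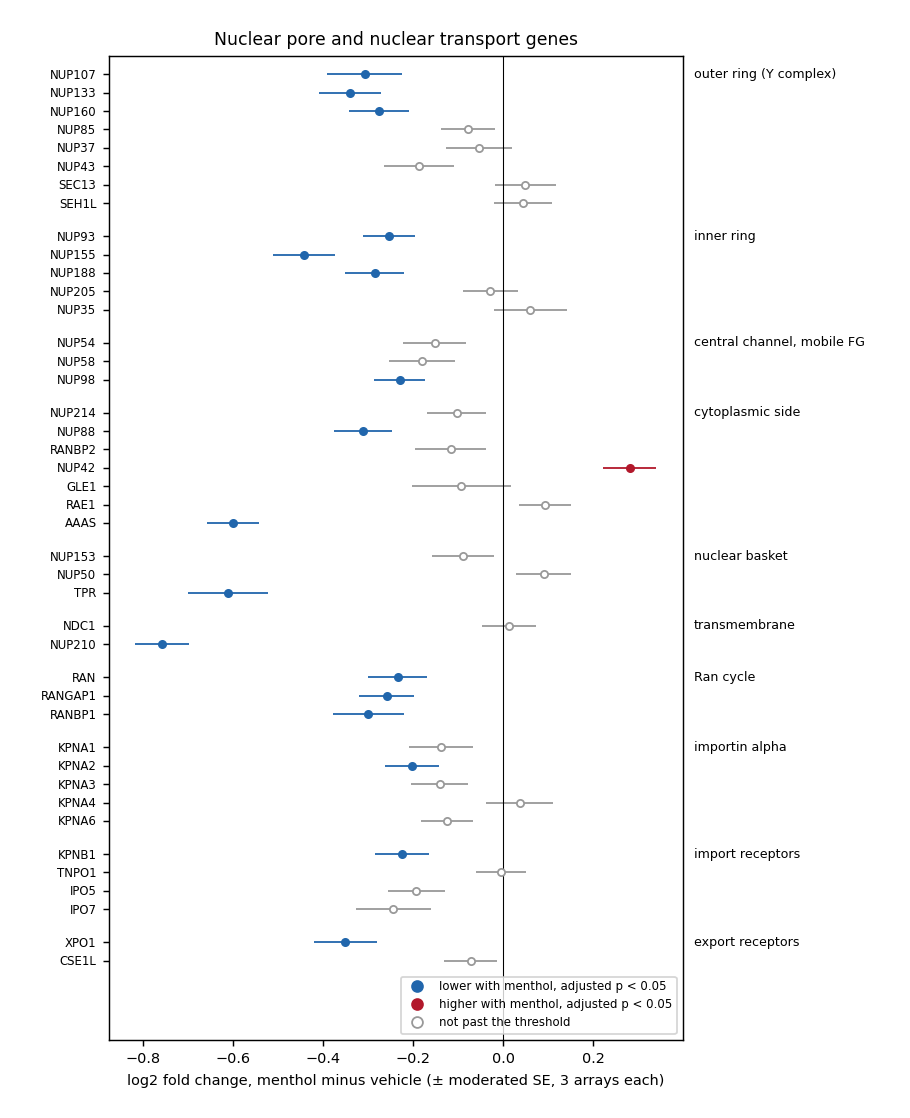
The plot gives the log2 fold change, menthol minus vehicle, of the 42 measured genes on the horizontal axis, with the moderated SE as a bar and the genes ordered by their place in the pore or their role. NUP210, TPR and AAAS lie farthest to the left, between -0.76 and -0.60, and NUP42 at 0.28 is the single gene past the threshold on the right.

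Most of these genes had bright probesets, and 36 of the 42 were among the brightest 4601 genes by mean signal, which ranks probesets and not amounts of transcript. Of those 4601, 26.9% fell and 17.2% rose, with a median difference of -0.05. These shares were not computed for the other settings, so the counts above stand only beside the shares of all genes. Of the 36 members among them, 16 fell (44.4%) and 0 rose, with a median of -0.19. The other 6 members were among the next brightest 4601 genes, of which 20.2% fell and 17.5% rose. Of these 6, TPR fell, NUP42 rose and 4 did not pass. In 27 of the 42 genes all menthol arrays were below all vehicle arrays, and in 3 genes all were above. Such separation downward was seen in 21.7% of all genes and upward in 23.5%. Among the brightest 4601 genes the shares were 39.8% and 26.7%, and among the 36 members there 24 were separated downward and 1 upward.

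**Figure D2:**
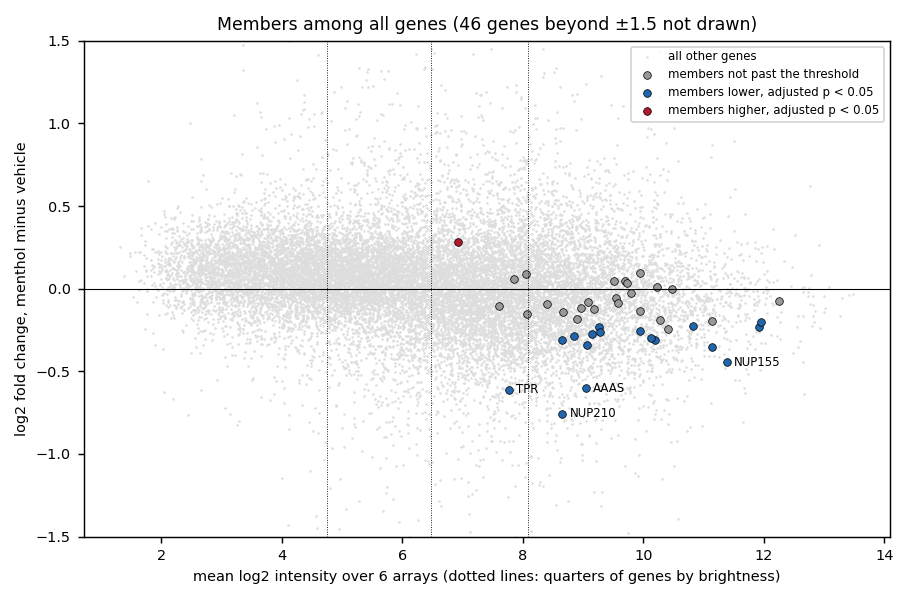
Each point is a gene, with its mean log2 intensity over the 6 arrays on the horizontal axis and its log2 fold change, menthol minus vehicle, on the vertical axis, which ends at 1.5 in both directions and leaves out 46 genes. The members lie among the brighter genes, mostly below 0, and NUP42 is the single member past the threshold above it.

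The membrane proteins anchor the pore in the envelope. NUP210, also known as gp210, had levels of 8.23, 8.27 and 8.33 with menthol, against 9.05, 9.01 and 9.04 with vehicle. The groups were far apart and each was tight, and the gene fell by 0.76 ± 0.06, or 1.69-fold (adjusted p = 0.000164). NDC1, the other measured membrane protein, averaged 10.23 ± 0.05 with menthol and 10.22 ± 0.03 with vehicle (SD, n = 3), and its difference of 0.01 ± 0.06 did not pass (adjusted p = 0.906).

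The nuclear basket projects into the nucleus and takes part in mRNA export and chromatin organisation. TPR, its filament protein, had 7.38, 7.37 and 7.63 with menthol, against 8.05, 8.01 and 8.16 with vehicle. Menthol replicate 3 was the highest of the menthol arrays and still below every vehicle array, and the gene fell by 0.61 ± 0.09, or 1.53-fold (adjusted p = 0.00201). NUP153, which links the basket to the pore, was at -0.09 ± 0.07 (adjusted p = 0.362). NUP50, which helps release import cargo, was at 0.09 ± 0.06 (adjusted p = 0.315). NUP50 levels with menthol were 8.10 in every array, above the vehicle levels of 7.95, 7.99 and 8.08. The difference between TPR and the other basket genes was not tested.

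The cytoplasmic side of the pore carries the proteins that strip mRNA of its export factors and dock transport receptors, and 2 of its 7 genes (28.6%) fell, 1 rose and 4 did not pass. These shares are close to those of the brightest 4601 genes, of which 26.9% fell and 17.2% rose. NUP42, the gene that rose, and NUP214 were not among those but among the next brightest 4601. Of these 20.2% fell and 17.5% rose. AAAS, also called ALADIN, had 8.70, 8.77 and 8.76 with menthol, against 9.36, 9.32 and 9.36 with vehicle. The groups did not overlap, and it fell by 0.60 ± 0.06, or 1.52-fold (adjusted p = 0.000348). With NUP210 and TPR it was among the 3 members that changed at least 1.5-fold. Over all genes 2.62% fell and 2.99% rose that far. NUP88, which binds NUP214 and NUP98, had 8.47, 8.43 and 8.58 with menthol, against 8.78, 8.81 and 8.82 with vehicle. It fell by 0.31 ± 0.06 (adjusted p = 0.00893).

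NUP42, which binds the export factor GLE1, had 7.03, 7.08 and 7.09 with menthol, against 6.73, 6.82 and 6.80 with vehicle. All menthol arrays were higher, and the gene rose by 0.28 ± 0.06 (adjusted p = 0.0108). It was the dimmest of the 42 genes, at the 56.8th percentile. GLE1 itself, which activates the mRNA export helicase, had 8.09, 8.45 and 8.51 with menthol, against 8.44, 8.45 and 8.43 with vehicle. Menthol replicate 1 alone was low there, and the difference of -0.09 ± 0.11 (adjusted p = 0.564) became 0.04 without it. NUP214, the binding partner of NUP88, had 7.47, 7.60 and 7.57 with menthol, against 7.71, 7.61 and 7.64 with vehicle (-0.10 ± 0.07, adjusted p = 0.275). RANBP2, the giant protein of the cytoplasmic filaments, had 8.76, 8.95 and 9.02 with menthol, against 9.06, 9.01 and 9.02 with vehicle (-0.12 ± 0.08, adjusted p = 0.303). The groups overlapped for RANBP2, and since further probesets name it together with its near-identical RGPD copies, its value is uncertain. RAE1, an mRNA export factor that binds NUP98, had 9.99, 10.03 and 9.94 with menthol, against 9.88, 9.89 and 9.92 with vehicle (0.09 ± 0.06, adjusted p = 0.277).

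**Figure D3:**
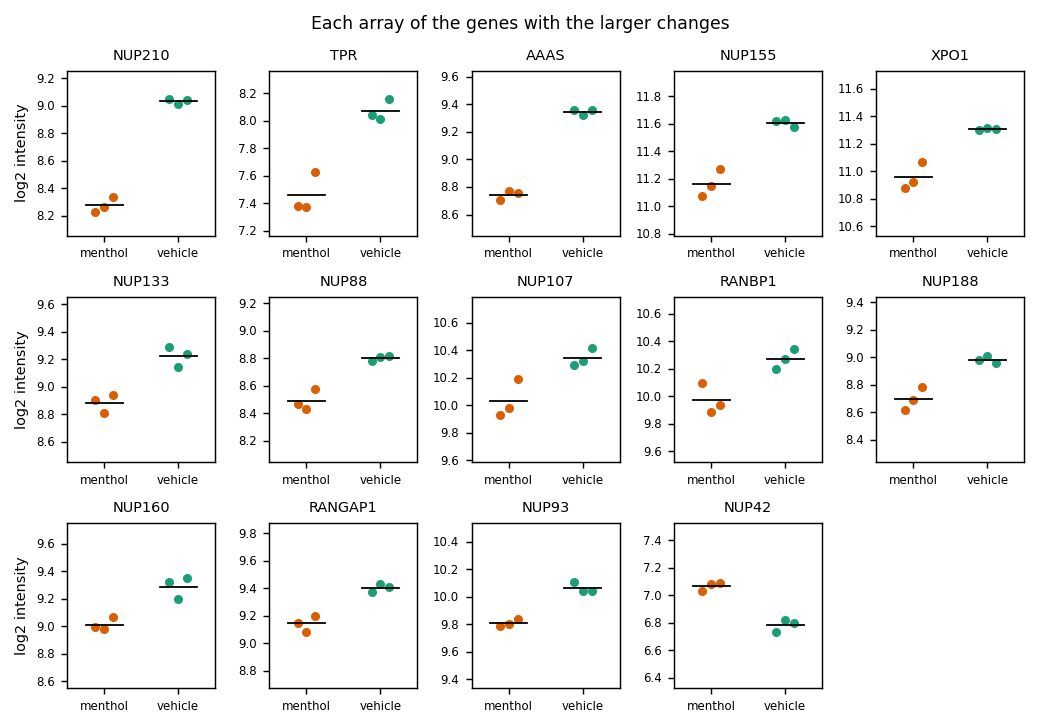
Each panel gives the log2 intensity of 1 gene in every array, with 3 menthol arrays on the left, 3 vehicle arrays on the right and a line at each group's mean, and all panels span 1.2 log2 units. The panels hold the 14 genes past the threshold with a change of at least 0.25, and in each of them the groups do not overlap.

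The sequence around the start of transcription is shown for these leading genes, NUP210, TPR, AAAS and NUP42, so that the 3 largest decreases can be set beside the single increase. Each window runs from 250 bases before to 50 bases after the RefSeq start, read on the gene's own strand in build GRCh38.p14. The windows are chr3:13420273-13420572 on the minus strand for NUP210, chr1:186375204-186375503 on the minus strand for TPR, chr12:53321561-53321860 on the minus strand for AAAS, and chr7:23181798-23182097 on the plus strand for NUP42. Capitals mark matches to the motifs searched.
NUP210: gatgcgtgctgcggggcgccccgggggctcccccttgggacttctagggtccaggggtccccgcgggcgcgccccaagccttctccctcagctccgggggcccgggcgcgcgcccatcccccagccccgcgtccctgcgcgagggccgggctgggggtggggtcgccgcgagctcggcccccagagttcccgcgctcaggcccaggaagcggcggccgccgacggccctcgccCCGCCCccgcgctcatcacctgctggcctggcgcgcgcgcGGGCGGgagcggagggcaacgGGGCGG
TPR: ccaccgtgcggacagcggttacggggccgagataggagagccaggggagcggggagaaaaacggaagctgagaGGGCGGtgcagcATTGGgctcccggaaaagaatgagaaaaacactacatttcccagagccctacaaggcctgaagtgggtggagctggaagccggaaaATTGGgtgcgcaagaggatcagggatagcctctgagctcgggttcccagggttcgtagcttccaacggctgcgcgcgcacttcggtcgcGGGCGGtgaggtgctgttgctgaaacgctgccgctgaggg
AAAS: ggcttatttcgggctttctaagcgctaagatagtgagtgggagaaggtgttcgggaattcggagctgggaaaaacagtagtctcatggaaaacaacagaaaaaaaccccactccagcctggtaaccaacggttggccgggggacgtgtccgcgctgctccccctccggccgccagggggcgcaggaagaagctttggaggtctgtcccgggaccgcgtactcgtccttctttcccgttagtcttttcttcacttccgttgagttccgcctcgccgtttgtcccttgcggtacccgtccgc
NUP42: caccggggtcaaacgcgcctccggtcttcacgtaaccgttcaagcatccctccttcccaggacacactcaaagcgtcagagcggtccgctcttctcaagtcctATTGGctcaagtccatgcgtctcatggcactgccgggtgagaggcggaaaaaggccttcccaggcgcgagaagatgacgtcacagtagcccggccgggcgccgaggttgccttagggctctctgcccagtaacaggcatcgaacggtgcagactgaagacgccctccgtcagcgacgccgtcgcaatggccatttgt
The NUP210 window had 81.3% G and C and held 3 matches to the GC box, GGGCGG or CCGCCC. TPR had 2 GC boxes and 2 CCAAT boxes, NUP42 had 1 CCAAT box, and AAAS had 0 matches to the motifs searched.

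RefSeq windows were found for 37 of the 42 measured genes, 47 windows in all since some genes have several starts. The GC box, the binding motif of SP factors, lay in 25 of these 47 windows (53.2%), against 45.0% of all 35116 promoter windows of the same length. It lay in 16 of 21 windows of genes that fell (76.2%) and in 9 of 26 of the others (34.6%). By gene, 13 of 15 genes that fell held it in at least 1 window, and 8 of 22 that did not fall. A gene with more windows is likelier to be counted there, and no such count was made over all genes. The median G and C content was 63.7% in the genes that fell and 61.8% in those that did not. By window it was 63.7% in the members and 58.7% in all promoter windows. CCAAT or ATTGG lay in 42.6% of the members' windows and 34.6% of all windows. TTTGAA or TTCAAA, the core of the cell cycle homology region (CHR), lay in 31.9% and 15.2%, and its share was 33.3% in windows of genes that fell and 30.8% in the others. The ETS motif CCGGAAGT or ACTTCCGG lay in 12.8% and 4.14%, with 4.76% of windows of genes that fell (1 of 21) and 19.2% of the others (5 of 26). The shares were 12.8% and 7.26% for the E-box CACGTG, and 2.13% and 0.65% for the E2F motif TTTGGCGC or GCGCCAAA. Both strands were searched, and no motif contains another. These matches are a description of the windows and carry no test.

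The outer ring, or Y complex, coats the pore on both faces of the envelope, and 3 of its 8 genes fell and 0 rose. All 8 were among the brightest 4601 genes, of which 26.9% fell. NUP133 had 8.90, 8.81 and 8.94 with menthol, against 9.29, 9.15 and 9.24 with vehicle, and fell by 0.34 ± 0.07 (adjusted p = 0.00837). NUP107, its direct binding partner in the stem of the Y, had 9.93, 9.98 and 10.19 with menthol, against 10.29, 10.32 and 10.41 with vehicle. The groups did not overlap, though menthol replicate 3 came close, and NUP107 fell by 0.31 ± 0.08 (adjusted p = 0.0284). It did not pass when any array other than menthol replicate 3 was left out (adjusted p = 0.0581 to 0.0909). NUP160, in an arm of the Y, had 8.99, 8.98 and 9.06 with menthol, against 9.32, 9.20 and 9.35 with vehicle, and fell by 0.28 ± 0.07 (adjusted p = 0.0184). Its call ended without menthol replicate 2 (adjusted p = 0.0612), vehicle replicate 1 (0.0666) or vehicle replicate 3 (0.0646).

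The remaining outer ring genes did not pass. NUP43 was at -0.19 ± 0.08 (adjusted p = 0.111), NUP85 at -0.08 ± 0.06, NUP37 at -0.05 ± 0.07, SEC13 at 0.05 ± 0.07 and SEH1L at 0.04 ± 0.06. SEC13 and SEH1L also serve outside the pore, SEC13 in the COPII coat of secretory vesicles and both in a GATOR complex that acts on mTORC1. The level of NUP37 overlapped between groups, with 9.43 to 9.64 under menthol and 9.55 to 9.61 under vehicle. NUP43 passed without menthol replicate 3 (-0.25, adjusted p = 0.0448).

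In the inner ring, which holds the pore's scaffold together around the channel, 3 of 5 genes fell and 0 rose. Among the brightest 4601 genes 26.9% fell. NUP155 had 11.07, 11.15 and 11.27 with menthol, against 11.62, 11.62 and 11.58 with vehicle, and fell by 0.44 ± 0.07 (adjusted p = 0.00288). NUP188 had 8.61, 8.69 and 8.79 with menthol, against 8.98, 9.01 and 8.96 with vehicle, and fell by 0.29 ± 0.07 (adjusted p = 0.0152). NUP93, the anchor of the channel proteins, had 9.79, 9.80 and 9.84 with menthol, against 10.11, 10.04 and 10.04 with vehicle, and fell by 0.25 ± 0.06 (adjusted p = 0.0146). In all 3 genes every menthol array was below every vehicle array. NUP205, a paralogue of NUP188, was at -0.03 ± 0.06 (adjusted p = 0.766), and NUP35 at 0.06 ± 0.08 (adjusted p = 0.617). NUP188 did not pass without vehicle replicate 1 (adjusted p = 0.0504) or 2 (0.0564), nor NUP93 without vehicle replicate 1 (0.0603).

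Among the FG proteins of the channel, NUP98 fell by 0.23 ± 0.06 (adjusted p = 0.0184). Its transcript also encodes NUP96, a subunit of the outer ring, which is cut from a shared precursor. NUP98 averaged 9.15 ± 0.02 with menthol and 9.38 ± 0.01 with vehicle (SD, n = 3), and its call ended without menthol replicate 2 (adjusted p = 0.0535), vehicle replicate 1 (0.0569), 2 (0.0642) or 3 (0.0576). NUP58 was at -0.18 ± 0.07 (adjusted p = 0.101) and NUP54 at -0.15 ± 0.07 (adjusted p = 0.145). These form the central channel with NUP62, and for both the menthol arrays lay below the vehicle arrays.

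Of the Ran cycle, 3 of 3 measured genes fell, with RAN counted by the brighter of its 2 probesets, against 26.9% of the brightest 4601 genes. RANBP1, a cofactor of GTP hydrolysis by Ran, had 10.10, 9.89 and 9.94 with menthol, against 10.20, 10.28 and 10.35 with vehicle, and fell by 0.30 ± 0.08 (adjusted p = 0.0242). RANGAP1, the GTPase-activating protein held at the cytoplasmic filaments by RANBP2, had 9.15, 9.08 and 9.20 with menthol, against 9.37, 9.43 and 9.40 with vehicle. It fell by 0.26 ± 0.06 (adjusted p = 0.0161). RAN averaged 11.81 ± 0.01 with menthol and 12.04 ± 0.08 with vehicle (SD, n = 3) and fell by 0.23 ± 0.06 (adjusted p = 0.0298). These calls were close to the threshold. RAN did not pass when any array other than vehicle replicate 1 was left out (adjusted p = 0.0598 to 0.103), RANBP1 without menthol replicate 2 (0.0790) or 3 (0.0640) or vehicle replicate 2 (0.0677) or 3 (0.0802), and RANGAP1 without menthol replicate 2 (0.0587) or vehicle replicate 2 (0.0631) or 3 (just over the threshold).

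RAN has 2 probesets, and the brighter was kept. The dimmer had 10.32, 10.38 and 10.34 with menthol, against 10.52, 10.50 and 10.47 with vehicle, so it lay lower in every menthol array too. In a fit over all 32321 probesets the dimmer was at -0.15 ± 0.06 (adjusted p = 0.14) and the brighter at -0.23 ± 0.07 (adjusted p = 0.0616). The RAN call in the counts rests on the brighter probeset alone. RefSeq lists a pseudogene of RAN, RANP1, and the share of signal from such copies in either probeset was not tested.

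Importin alpha proteins read the classical nuclear localisation signal and hand the cargo to importin beta. KPNA2, an importin alpha that is often high in dividing cells, averaged 11.84 ± 0.05 with menthol and 12.05 ± 0.03 with vehicle (SD, n = 3) and fell by 0.20 ± 0.06 (adjusted p = 0.0392). Without menthol replicate 1 or 2 or any vehicle array it did not pass (adjusted p = 0.0720 to 0.117). KPNA3 was at -0.14 ± 0.06 (adjusted p = 0.134), KPNA1 at -0.14 ± 0.07 (adjusted p = 0.186), KPNA6 at -0.13 ± 0.06 (adjusted p = 0.146) and KPNA4 at 0.04 ± 0.07 (adjusted p = 0.755). In the first 3 of these 4 the menthol arrays lay below the vehicle arrays, while those of KPNA4 overlapped.

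KPNB1, the importin beta that carries importin alpha through the pore, averaged 10.70 ± 0.06 with menthol and 10.93 ± 0.03 with vehicle (SD, n = 3). It fell by 0.23 ± 0.06 (adjusted p = 0.0273), and without each array other than menthol replicate 3 it did not pass (adjusted p = 0.0597 to 0.0913). IPO7 and IPO5, which import ribosomal proteins and histones, just missed the threshold, at -0.24 ± 0.08 (adjusted p = 0.0608) and -0.19 ± 0.06 (adjusted p = 0.053). Both passed without menthol replicate 3 (adjusted p = 0.0163 for IPO7 and 0.0491 for IPO5). TNPO1, the import receptor of hnRNP proteins such as HNRNPA1, averaged 10.47 ± 0.02 with menthol and 10.47 ± 0.01 with vehicle, and its difference was -0.0046 ± 0.06 (adjusted p = 0.961).

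Of the export receptors, 1 of 2 fell, against 26.9% of the brightest 4601 genes. XPO1, also known as CRM1, is the receptor of leucine-rich nuclear export signals and the target of selinexor. XPO1 had 10.87, 10.92 and 11.07 with menthol, against 11.30, 11.31 and 11.30 with vehicle. The vehicle arrays were almost identical and every menthol array lay below them, and XPO1 fell by 0.35 ± 0.07 (adjusted p = 0.0078). CSE1L, which returns importin alpha to the cytoplasm, was the brightest of the 42 genes, at 12.21 ± 0.05 with menthol and 12.28 ± 0.03 with vehicle (SD, n = 3), and its difference of -0.07 ± 0.06 did not pass (adjusted p = 0.401).

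Of the 18 genes past the threshold, 8 kept their direction and call in every one of the 16 alternative settings at the same threshold. These were NUP210, TPR, AAAS, NUP155, XPO1, NUP133 and NUP88, which fell, and NUP42, which rose. Of the other 10, NUP107, NUP93, RAN, RANBP1, KPNA2 and KPNB1 did not pass after another quantile or a cyclic loess normalization, with adjusted p from 0.055 to 0.158 after quantile and from 0.0503 to 0.253 after cyclic loess normalization. All 6 passed with equal array medians (adjusted p = 0.0121 to 0.0315). NUP98 did not pass after cyclic loess normalization (adjusted p = 0.0525). Menthol replicate 3 was the closest to vehicle: it was the highest menthol array in 14 of the 17 genes that fell. Over the 42 genes its median difference from the vehicle mean was -0.09, against -0.24 for menthol replicate 1 and -0.18 for menthol replicate 2.

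**Figure D4:**
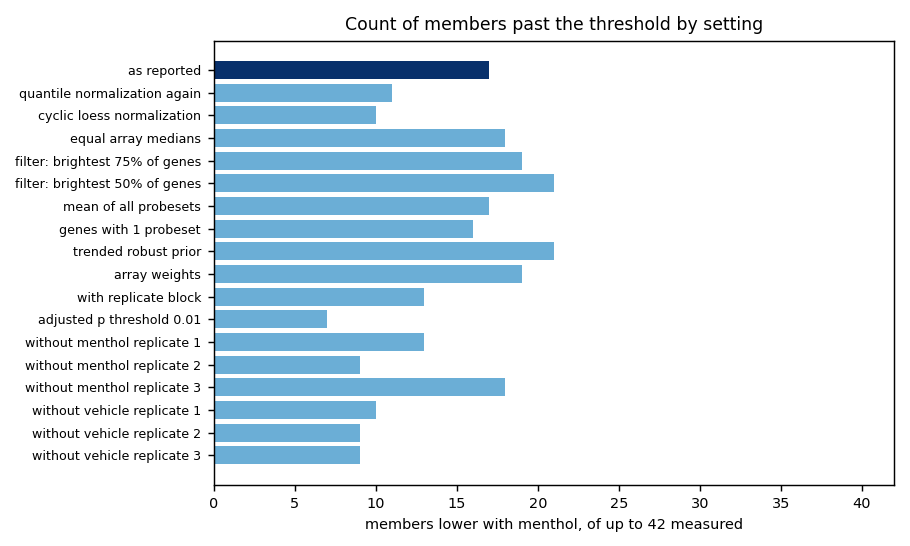
The bars give the number of measured members that were lower with menthol past the threshold under each setting, with the reported fit on top. The count was 17 as reported, 9 to 18 with 1 array left out, 11 after quantile and 10 after cyclic loess normalization, 18 with equal array medians, and 7 at an adjusted p threshold of 0.01, which 7.93% of all genes passed as lower and 7.51% as higher.

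Related genes outside the 44 were taken from lists. Among all genes 14.5% fell and 14.6% rose, and among the brightest 4601 genes 26.9% and 17.2%. Of 19 further transport receptors and Ran factors 8 fell and 1 rose, with a median of -0.23. The exception was KPNA7, an importin alpha known from oocytes and early embryos, which had 6.12, 6.13 and 6.04 with menthol, against 4.76, 4.83 and 4.71 with vehicle. The groups were widely separated, and KPNA7 rose by 1.33 ± 0.06, or 2.51-fold (adjusted p = 3.51e-05). It remained a dim gene, at the 35.0th percentile. IPO4, an import receptor of histones, fell by 0.63 ± 0.06 (adjusted p = 0.00039), and TNPO2, a close paralogue of TNPO1, by 0.59 ± 0.06 (adjusted p = 0.000441). The gap between these transportins, -0.59 for TNPO2 and -0.0046 for TNPO1, was not tested. With members and further genes together, 4 of 7 export receptors, 5 of 11 import receptors and 2 of 7 importin alpha genes fell, and 1 of the importin alpha genes rose. Of the brightest 4601 genes 26.9% fell and 17.2% rose, and the importin alpha shares are close to these.

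**Figure D5:**
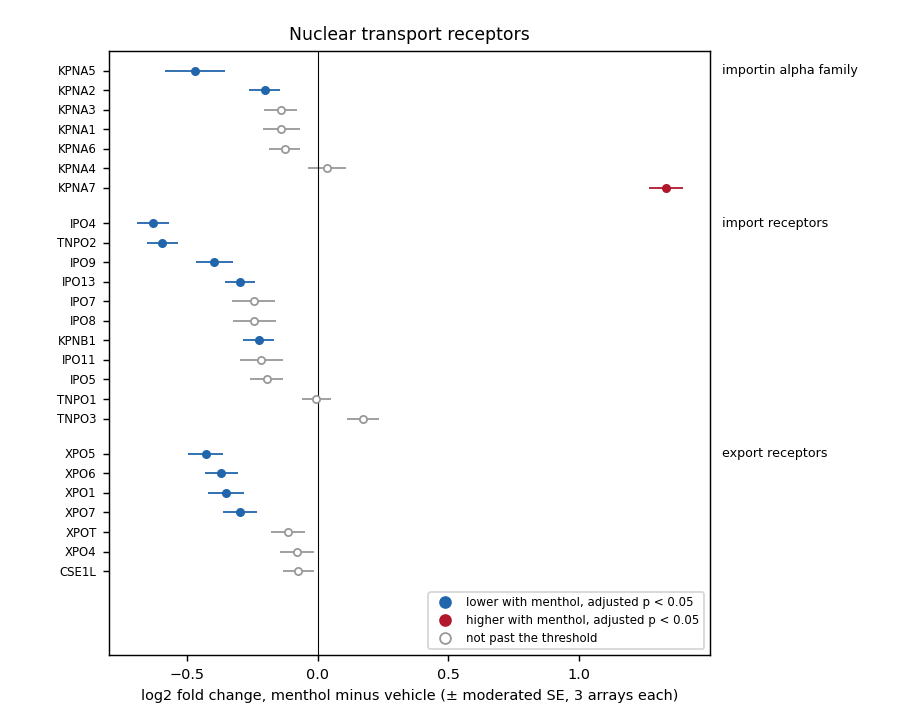
The plot gives the log2 fold change, menthol minus vehicle, of 25 transport receptors on the horizontal axis, with the moderated SE as a bar, by class. KPNA7 stands apart on the right at 1.33, and IPO4 and TNPO2 lie farthest to the left at -0.63 and -0.59.

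Of 16 measured mRNA export factors 8 fell and 0 rose, with a median of -0.23. The share that fell was 14.5% of all genes and 26.9% of the brightest 4601. THOC6, a subunit of the THO complex that loads export factors onto mRNA, fell by 0.85 ± 0.06 (adjusted p = 7.85e-05), and its levels were 8.30, 8.31 and 8.31 with menthol, against 9.14, 9.17 and 9.14 with vehicle. The helicase gene DDX39A fell by 0.41 ± 0.06 (adjusted p = 0.00172) and MCM3AP, the scaffold of the TREX-2 export complex, by 0.37 ± 0.07 (adjusted p = 0.00553). Of 16 genes of the nuclear lamina and envelope 4 fell, 4 rose and 8 did not pass. The 25% that fell are close to the 26.9% of the brightest 4601 genes. Another 25% rose, against 17.2% of the brightest 4601 and 14.6% of all genes. The list was of mixed brightness, from the 21.0th percentile up. LMNB2, a B-type lamin, fell by 0.45 ± 0.06 (adjusted p = 0.00107), and EMD, which encodes emerin, fell by 0.40 ± 0.07 (adjusted p = 0.00458). TOR1AIP1, an activator of torsin, rose by 0.53 ± 0.07 (adjusted p = 0.00107). The germline nucleoporin NUP210L, a paralogue of NUP210 and the single measured gene of 4 further nucleoporins, was dim, at the 11.7th percentile, and did not pass (0.13 ± 0.08, adjusted p = 0.263). Over these lists together 20 of 52 genes fell (38.5%) and 5 rose (9.6%), against 14.5% and 14.6% of all genes. The 52 genes were mostly bright, with a median at the 82.8th percentile. Of the brightest 4601 genes 26.9% fell and 17.2% rose. Under cyclic loess normalization 16 fell and 9 rose, against 13.4% and 14.8% of all genes. After another quantile normalization 16 fell and 8 rose, against 12.8% and 15.9%.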

How the data were processed

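The authors deposited 1 table of intensity values for 32321 probesets on 6 arrays, and the submitters' processing notes name RMA (background correction, quantile normalization and probeset summary). The deposited intensity values ran from 1.57 to 14835, so they were on a linear scale, and log2 was taken. The software version is not given in the sources used here. Probesets were named from the platform annotation: 19158 had 1 gene symbol, 1388 several and 11775 none. Where a gene had several probesets, the brightest on average was kept, which gave 18404 genes. The test was limma's two-sided moderated test (limma 3.58.1, R 4.3.3), fitted by lmFit and eBayes with group alone in the model. P-values were adjusted by Benjamini and Hochberg's method across all 18404 genes, and 0.05 was the threshold. The fit was tested on simulated data. No label states that replicates came from separate cultures. The p-values therefore cover only the variation among these samples, possibly technical.

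The members and lists were chosen with earlier results of these data known. Values per array are given for members past the threshold with a change of at least 0.25 on the log2 scale and for every member of a role group with calls in both directions, with further ones chosen after their values were seen. Of each related list up to 3 genes with the largest change are named. Every fit was repeated with quantile, cyclic loess or equal-median normalization. Further repeats dropped dimmer genes, averaged probesets or kept genes with 1 probeset, used a trended robust prior or array weights, blocked on replicate number, called at 0.01, or left out each array in turn. Motifs were searched in the RefSeq promoter table (GRCh38.p14). Figures were made with Python 3.11.15 and matplotlib 3.10.9.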

Additional observations from a re-analysis of the deposited data

How the results depend on the processing

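Of the 42 genes, the 18 past the threshold kept their direction in every alternative run, and 10 of them lost their call in at least 1 at the same threshold. Of 713 pairs of a gene and an alternative, 616 kept direction and call, 65 lost the call, 16 gained one and 16 changed sign, these last in 8 genes that had not passed. After another quantile normalization 11 members fell, with a median of -0.091, and 8 genes of the related lists rose. After cyclic loess normalization 10 members fell, with a median of -0.10, and 9 related genes rose. With the trended robust prior 9 related genes rose. At a threshold of 0.01, 0 members rose and 7 fell, 1382 of all genes rose and 1459 fell, and 13 related genes fell. Over the fits that each leave out an array, 9 to 18 members fell. The sign changed for NUP37 (0.00059 quantile, 0.015 loess), NUP205 (0.043 and 0.045), TNPO1 (0.090 and 0.079), CSE1L (0.024 and 0.035) and NDC1 (-0.0087 with equal medians, -0.0060 with array weights). With an array left out the differences ran from -0.17 to 0.037 for GLE1, -0.0069 to 0.13 for NUP35, -0.016 to 0.037 for NDC1, -0.012 to 0.0051 for TNPO1, -0.050 to 0.00048 for NUP205 and -0.020 to 0.080 for KPNA4. The cause was not tested.

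The groups share replicate numbers, but same-numbered arrays did not deviate together (correlations 0.0065, -0.0072 and 0.09). Only the arrays of replicate 3 correlated best with their own number. With the replicate block 13 members fell in place of 17, and RAN, RANBP1, KPNA2 and KPNB1 did not pass. The number of arrays limits the precision.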
